A study of Homo sapiens with 10 samples.

Results

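Interferons are secreted proteins that cells release on viral infection. Type I interferons bind the receptor chains IFNAR1 and IFNAR2, and interferon gamma binds IFNGR1 and IFNGR2. The attached kinases JAK1, TYK2 and JAK2 then phosphorylate STAT factors, and the complex ISGF3, which holds IRF9, switches on the interferon-induced genes through a promoter element called ISRE. In chronic myeloid leukaemia (CML), which the BCR-ABL fusion kinase drives, interferon alpha was a standard treatment before tyrosine kinase inhibitors. The data described here are the signals of 44 of 48 listed interferon-induced genes and their regulators, out of 8226 genes that the arrays measured. They were chosen by name, as all probe sets that the platform annotation assigns to a single listed symbol, which gave 65 of 12558 probe sets. No probe set with a single symbol was found for STAT2, OAS3, USP18 and IFI30, and these are not analysed here.

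The study compared a cyclophosphamide-resistant subline of a human CML cell line with the sensitive line it came from. Cyclophosphamide is an alkylating drug that crosslinks DNA. Each group had 5 arrays of total RNA from cells grown in tissue culture medium, and the labels mention neither an interferon treatment nor the name of the line. Nor do they say whether the arrays of a group stand for separate cultures: p-values measure only the spread between these samples, and that spread may be technical. The resistant cells are 1 subline.

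The ratio of 3' to 5' signal of GAPDH, a measure of RNA integrity, was 0.801 to 0.968 in resistant and 0.833 to 0.921 in sensitive arrays. Between 50.96% and 61.28% of probe sets in resistant arrays, and between 52.72% and 59.14% in sensitive arrays, lay above the negative control limit, the 95th percentile of 32 control probe sets with no human target. The limit was a signal of 319.7 to 739.8 in resistant arrays and 360.8 to 640 in sensitive arrays. Pearson's r of log2 signals across probe sets was 0.925 to 0.96 between arrays of a group and 0.883 to 0.923 between arrays of different groups. BCR, ABL1 and the progenitor factor MYB were above the limit on all 10 arrays, while KIT was above it on none. The lineage markers of the lines differed: of 9 markers of granulocyte precursors, 8 were called lower in resistant arrays, with a summed signal of 1512 to 3226 in resistant and 172490 to 367970 in sensitive arrays. Of 4 measured erythroid markers 2 were called higher (KLF1 and TAL1), with a summed signal of 21216 to 31914 in resistant and 5858 to 13093 in sensitive arrays. Of 5 megakaryocytic markers 1 was called higher (ITGA2B; summed signal 11888 to 19846 in resistant and 1106 to 2523 in sensitive arrays), and 4 exceeded the limit on no array. Within the sensitive group, replicates 4 and 5 stood apart for some markers. EPX was 40734 and 38859 on them, against 3585 to 4885 on replicates 1 to 3. GATA1 was 3800 and 3650 on them, against 431 to 968, and 3009 to 4661 in resistant arrays. KLF1 was 1613 and 2340 on them, against 463 to 991. CEBPE did not divide in this way, at 8887 and 11401 against 10994 to 14359. The part of these lineage differences in the values of the interferon genes was not tested. Of the 4 monocyte, 4 B lymphoid and 5 T and NK lymphoid markers measured, none was called, and of 4 stromal markers 1 was called lower. In whole cultures, fewer cells that express a gene and less RNA per cell cannot be told apart.

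In resistant cells a small set of interferon-induced genes was higher and 1 was lower. IFI44, an interferon-induced cytoplasmic protein, was at least 10.7-fold higher, and APOL1, the serum protein that lyses trypanosomes, at least 3.33-fold higher. IFIT1 and IFIT3, partner proteins that bind foreign RNA and block its translation, had 3.05-fold and 4.39-fold higher mean signals. IFIT1 was above the limit on only 1 sensitive array, so its ratio is largely one to background. IFI16, a nuclear sensor of DNA, was at least 1.46-fold higher. UBE2L6, the enzyme that hands the ubiquitin-like protein ISG15 to its targets, had a 2.32-fold higher mean signal, and IRF5, a transcription factor below Toll-like receptors, a 2.58-fold higher one, although the call of IRF5 was lost under 9 of 17 alternative settings. MX2, a dynamin-like GTPase that restricts HIV at the nuclear pore, was the exception: it was bright in sensitive cells and at least 5.98-fold lower in resistant cells.

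A probe set is called here where the Benjamini-Hochberg adjusted p of limma, over all 12558 probe sets, is under 0.05. Of the 65 interferon probe sets, 10 were called higher and 1 lower in resistant arrays. In the whole array data limma called 7.41% of probe sets, 4.42% higher and 2.99% lower. The share called higher was 15.4% for the interferon probe sets and the share called lower was 1.54%. The genes were listed with earlier results of these data known, so such shares are a description and no test. With each gene read by its brightest probe set, 7 of 44 genes were called higher (15.9%, against 4.94% of 8226 genes) and 1 lower (2.27%, against 3.46%), where 8.4% of all genes were called either way. The median log2 difference was 0.33 over the 44 genes and 0.03 over the 8226. The signals of the groups did not overlap for 11 of the 65 probe sets (16.9%, against 8.5% of the whole table). By gene, 9 of 44 had separate groups, 8 of them with resistant arrays higher, against 9.88% and 5.69% of all genes. Of the 65 probe sets, 17 that were higher and 1 that was lower had an unadjusted p under 0.05, against 10.2% higher and 7.69% lower of all probe sets (11% and 8.44% of all genes). In all, 48 of the 65 were above the limit on at least 3 arrays of either group, and 9 exceeded it on none.

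**Figure D1:**
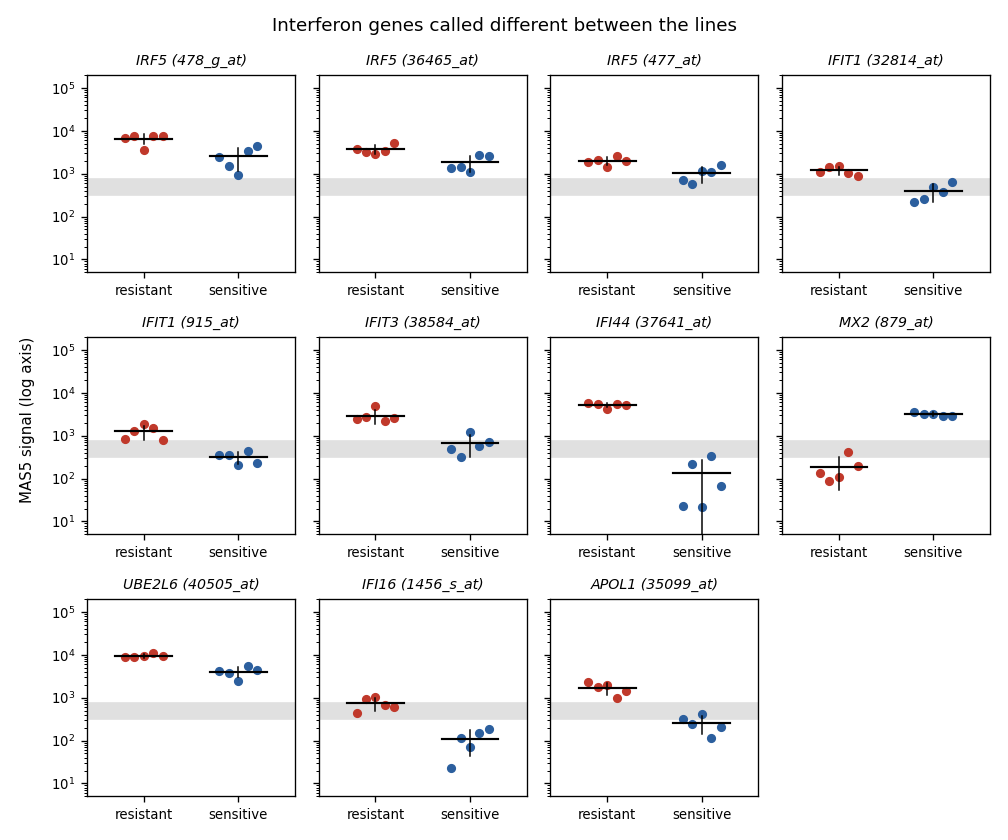
MAS5 signal (log axis) of the 11 interferon probe sets that were called, 1 point per array, with resistant arrays left of sensitive arrays. The black line is the mean of 5 arrays, the vertical bar the SD (a bar that meets the lower edge runs below it), and the grey band spans the negative control limits of 319.7 to 739.8. MX2 is the only panel in which sensitive arrays are the higher ones, and IFI44 spans 4119 to 5880 in resistant arrays and 22.1 to 343 in sensitive arrays.

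Promoters of 3 called genes and of 2 that were not called are shown here because the ISRE is the element through which ISGF3 acts. The windows are the 250 bases before an annotated start, from RefSeq in build GRCh38.p14, and the capitals mark the letters GAAANNGAAA on either strand, which read TTTCNNTTTC on the other. Windows were found for 34 of the 48 listed genes. The first 4 windows belong to IFIT1, IFIT3 (which has 2 starts) and IFI44, which were called higher. The last 2 belong to IFIT5 and ISG15, which hold the same letters and were not called.
IFIT1, chr10:89392373-89392622, plus strand: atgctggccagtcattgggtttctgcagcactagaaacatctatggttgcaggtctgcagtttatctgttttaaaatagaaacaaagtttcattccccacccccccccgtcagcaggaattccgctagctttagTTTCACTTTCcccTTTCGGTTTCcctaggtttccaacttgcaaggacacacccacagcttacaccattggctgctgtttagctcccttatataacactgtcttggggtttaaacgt
IFIT3, chr10:89327747-89327996, plus strand: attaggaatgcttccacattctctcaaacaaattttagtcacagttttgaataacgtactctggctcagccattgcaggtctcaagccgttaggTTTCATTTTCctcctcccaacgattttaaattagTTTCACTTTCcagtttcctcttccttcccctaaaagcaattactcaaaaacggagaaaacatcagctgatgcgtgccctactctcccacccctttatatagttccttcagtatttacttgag
IFIT3, chr10:89332279-89332528, plus strand: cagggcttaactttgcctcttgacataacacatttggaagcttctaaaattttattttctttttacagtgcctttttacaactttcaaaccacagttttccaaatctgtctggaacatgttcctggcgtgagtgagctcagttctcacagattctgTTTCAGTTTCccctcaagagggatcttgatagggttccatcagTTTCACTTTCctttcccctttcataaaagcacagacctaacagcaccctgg
IFI44, chr1:78649539-78649788, plus strand: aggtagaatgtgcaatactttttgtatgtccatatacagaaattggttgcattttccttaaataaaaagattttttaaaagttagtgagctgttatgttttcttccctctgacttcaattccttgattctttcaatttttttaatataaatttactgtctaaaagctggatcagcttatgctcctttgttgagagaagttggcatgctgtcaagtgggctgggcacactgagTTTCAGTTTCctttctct
IFIT5, chr10:89414318-89414567, plus strand: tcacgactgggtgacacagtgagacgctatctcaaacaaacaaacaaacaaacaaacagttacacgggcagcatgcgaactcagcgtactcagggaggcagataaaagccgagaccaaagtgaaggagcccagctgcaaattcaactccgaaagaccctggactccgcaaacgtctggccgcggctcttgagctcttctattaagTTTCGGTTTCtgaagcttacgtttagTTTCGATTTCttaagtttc
ISG15, chr1:1013247-1013496, plus strand: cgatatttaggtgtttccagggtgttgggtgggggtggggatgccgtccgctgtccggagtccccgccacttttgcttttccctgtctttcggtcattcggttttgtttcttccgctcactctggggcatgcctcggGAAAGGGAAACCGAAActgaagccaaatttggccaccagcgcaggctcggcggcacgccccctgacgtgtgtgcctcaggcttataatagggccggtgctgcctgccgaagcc

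The IFIT1 window held 2 matches, which began 116 and 103 bases before the start. Each IFIT3 window also held 2, at 156 and 122 bases in one and at 94 and 51 in the other. The IFI44 window, the first of its 2, held 1 match, 18 bases before the start. The matches of IFIT5 began 45 and 19 bases before the start, and the 2 of ISG15, at 113 and 107 bases, overlap each other. Of all 27305 genes with a window, 3.71% held a match, against 15 of the 34 listed interferon genes (44.1%), which are known for this element. Among the genes called here 3 of 6 with a window held one, and among the measured genes that were not called 11 of 25 did. The called genes UBE2L6, IFI16 and IRF5 had no match in their windows, and MX2 and APOL1 have no window in the table used here. The letters TTCNNNGAA of the gamma-activated site, the element of interferon gamma, were found in the windows of 0 of the 6 called genes, in 9 of the 25 not called and in 8.09% of all genes. A match is a description of letters and no evidence of binding.

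No interferon receptor chain was called. IFNAR1 averaged 734 ± 133 in resistant and 778 ± 284 in sensitive arrays (SD, n = 5 each, as for all such pairs; log2 difference 0.00, SE 0.28). The brightest of 3 probe sets of IFNAR2 averaged 1590 ± 285 in resistant and 1556 ± 210 in sensitive arrays (log2 difference 0.02, SE 0.18). Both differences were smaller than their SE. The other 2 probe sets of IFNAR2 had log2 differences of 0.14 (SE 0.23) and -0.33 (SE 0.28). Of the interferon gamma receptor, IFNGR1 averaged 5126 ± 816 in resistant and 3785 ± 609 in sensitive arrays (log2 difference 0.43, limma adjusted p = 0.249). IFNGR2 averaged 9922 ± 2673 in resistant and 8863 ± 1453 in sensitive arrays (log2 difference 0.13). The ligands themselves were near background: of 12 interferon genes measured, which covered the near-identical alpha genes, beta, omega and gamma, 0 were called by limma, 0 were above the limit on 3 or more arrays of a group, and 6 never exceeded it. The unadjusted p was under 0.05 for 1 of them, which was lower.

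Among the interferon regulatory factors (IRFs) only IRF5 was called. Its brightest probe set had signals of 6631, 7693, 3555, 7434 and 7545 in resistant arrays, against 2473, 1550, 910, 3413 and 4375 in sensitive arrays. The groups overlapped in 1 array on each side, resistant replicate 3 and sensitive replicate 5. The log2 difference was 1.46 (SE 0.38, limma adjusted p = 0.0382). Its other 2 probe sets also moved upward, by 1.02 (adjusted p = 0.0424) and 0.95 (adjusted p = 0.0475) on the log2 scale. All 3 calls are marginal: they were lost under 9, 11 and 11 of 17 alternative settings, in the order given, and the highest adjusted p was 0.0995, 0.108 and 0.12. The brightest probe set lost its call without resistant replicate 1, 2, 4 or 5 or sensitive replicate 1, 2 or 3. The second lost it without any 1 resistant array or sensitive replicate 1, 2 or 3, and the third without resistant replicate 1, 2, 4 or 5 or sensitive replicate 1, 2, 3 or 4.

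The other IRFs gave no call. IRF9, the DNA-binding part of ISGF3, averaged 1874 ± 607 in resistant and 1307 ± 499 in sensitive arrays (log2 difference 0.49, SE 0.29, limma adjusted p = 0.432). IRF1, which interferon gamma induces, averaged 1675 ± 541 in resistant and 1402 ± 243 in sensitive arrays. IRF3, the latent factor that turns on interferon beta, averaged 3809 ± 283 in resistant and 4066 ± 435 in sensitive arrays, and its log2 difference of -0.09 was under its SE of 0.16. IRF2, a repressor of IRF1 targets, averaged 1309 ± 277 in resistant and 1221 ± 313 in sensitive arrays. IRF7, the interferon-induced amplifier of interferon alpha genes, was near the limit, above it on 3 resistant and 2 sensitive arrays (log2 difference 0.51, adjusted p = 0.631). The lymphoid factor IRF4 exceeded the limit on no array in any of its 3 probe sets. IRF8, a myeloid factor known to be low in CML, was above it on 0 resistant arrays and 1 sensitive array.

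The IFIT and IFI44 family held 3 of the 7 genes called higher, IFI44, IFIT3 and IFIT1. IFI44 had signals of 5880, 5359, 4119, 5481 and 5318 in resistant arrays, against 22.5, 213, 22.1, 343 and 65.5 in sensitive arrays. No sensitive array was above the limit and every resistant array was. The log2 difference was 4.60 (SE 0.33, limma adjusted p = 3.02e-06), and it lay between 3.43 and 5.44 over all 17 alternatives. IFI44L, a relative of IFI44 and its neighbour on chromosome 1, exceeded the limit on no array, with a mean of 274 ± 186 in resistant and 140 ± 159 in sensitive arrays (log2 difference 0.67, adjusted p = 0.521).

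IFIT3 had signals of 2427, 2746, 4833, 2177 and 2542 in resistant arrays, against 490, 326, 1240, 584 and 715 in sensitive arrays. The groups did not overlap, and replicate 3 was the highest in both (log2 difference 2.01, SE 0.31, limma adjusted p = 0.00141). IFIT1 was called in both of its probe sets. The brighter had 1088, 1459, 1506, 1057 and 905 in resistant arrays, against 220, 254, 479, 383 and 638 in sensitive arrays, of which 1 was above the limit (log2 difference 1.41, SE 0.25, adjusted p = 0.00388). The other gave a log2 difference of 1.62 (adjusted p = 0.00183), and neither probe set overlapped between the groups. IFIT2, which lies beside IFIT3 on chromosome 10, was not called. Its brighter probe set had 395, 581, 837, 810 and 562 in resistant arrays, against 325, 371, 622, 234 and 321 in sensitive arrays, and the groups overlapped. The 2 probe sets of IFIT2 gave log2 differences of 0.63 (adjusted p = 0.185) and 0.88 (adjusted p = 0.117), and exceeded the limit on 4 and 3 resistant arrays and on no sensitive array. IFIT5, the neighbour of IFIT1, averaged 883 ± 286 in resistant and 746 ± 193 in sensitive arrays (log2 difference 0.20, adjusted p = 0.764).

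**Figure D2:**
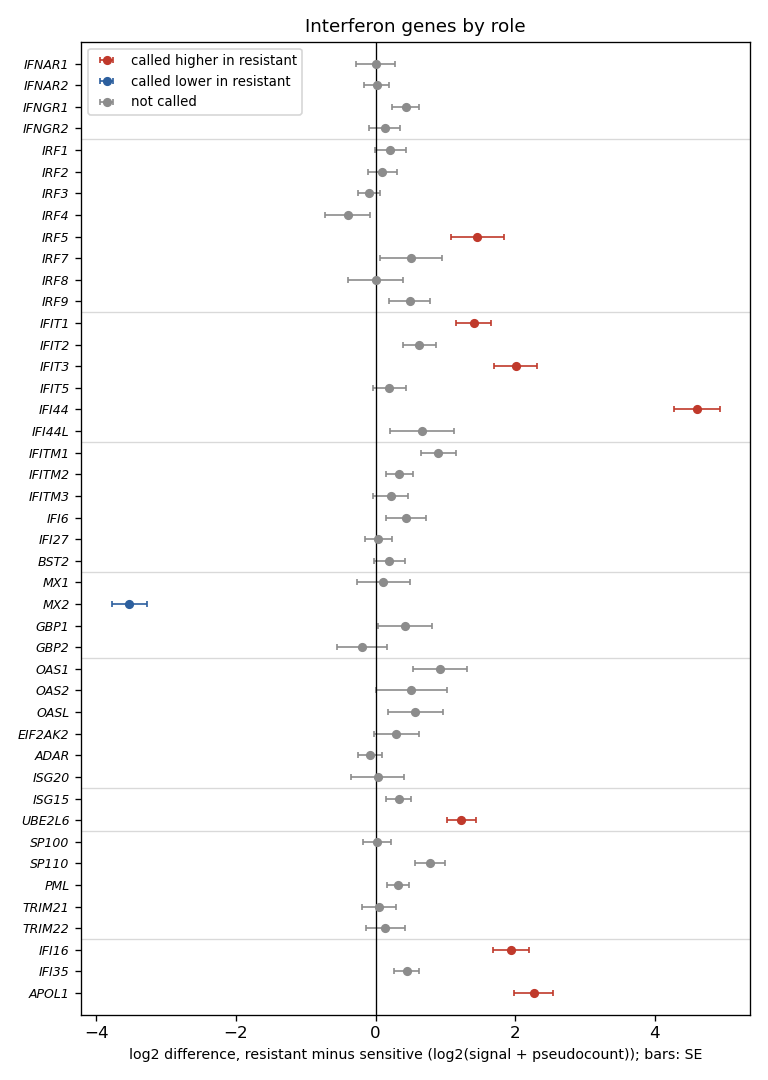
Log2 difference of resistant minus sensitive arrays, on the log2(signal + 114.8) scale, for the brightest probe set of each of the 44 interferon genes, in blocks by role from receptors to other induced genes. Bars are the SE of the limma fit on 5 arrays a group, and colours mark the 7 genes called higher, the 1 called lower and the 36 not called. IFI44 lies at 4.60 and MX2 at -3.53.

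MX2 went against these genes. Its signals were 137, 89.7, 107, 418 and 193 in resistant arrays, against 3660, 3167, 3242, 2892 and 2946 in sensitive arrays. Every sensitive array was above the limit and no resistant array was, and the means were 189 ± 134 in resistant and 3181 ± 305 in sensitive arrays. The log2 difference was -3.53 (SE 0.25, limma adjusted p = 3.02e-06) and stayed between -4.03 and -2.63 over the 17 alternatives. MX1, its neighbour on chromosome 21 and a block to influenza virus, exceeded the limit on no array, with 71.4, 247, 220, 44.9 and 524 in resistant and 78.8, 332, 201, 170 and 84.9 in sensitive arrays (log2 difference 0.11, adjusted p = 0.927). MX2 was measured by 1 probe set, as were IFI44, IFIT3, APOL1, IFI16 and UBE2L6. The granulocyte precursor markers that also differ between the lines moved in the same direction as MX2, and their part in its fall was not tested. GBP1 and GBP2, guanylate-binding proteins that interferon gamma induces, were not called. GBP1 was above the limit on 1 resistant array and no sensitive array, and GBP2 on 1 resistant and 2 sensitive arrays (log2 difference 0.42, adjusted p = 0.665, and -0.19, adjusted p = 0.868).

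The induced membrane proteins were mostly bright in both lines. IFITM1, IFITM2 and IFITM3 are related proteins of cell membranes that block virus entry, and they lie side by side on chromosome 11. Their probes may read each other's transcripts. A further probe set that the annotation assigns to all 3 was left out by the selection. IFITM1 had 24309, 30392, 25427, 28854 and 37588 in resistant arrays, against 12033, 12818, 11356, 19897 and 25457 in sensitive arrays. It missed the threshold in limma (log2 difference 0.90, SE 0.25, adjusted p = 0.0526). The groups overlapped through sensitive replicate 5, without which the adjusted p was 0.0151 and the log2 difference 1.08. Of 10 fits that each left out 1 array, only that 1 called IFITM1, and the highest adjusted p was 0.129. Sensitive replicates 4 and 5 were the highest of their group for IFITM1, and also for SP110 and the brightest IRF5 probe set. Of the other called listed genes, they were highest for UBE2L6 and IFI16, lowest for MX2 and APOL1, and neither for IFI44, IFIT1 and IFIT3. Of the called genes of the wider pathway, given below, they were highest for SOCS1, WARS1 and BLVRA and lowest for CASP1, TNFSF10 and STAT4. The rest showed neither pattern. The sensitive signals of IFI16, APOL1 and STAT4 lay under the limit. No alternative setting left out both sensitive replicates 4 and 5. The log2 difference was 0.34 (adjusted p = 0.391) for IFITM2 and 0.22 (adjusted p = 0.731) for IFITM3. BST2, or tetherin, which holds budding virus at the cell surface, averaged 14887 ± 3132 in resistant and 12885 ± 2566 in sensitive arrays (log2 difference 0.20). IFI27, often the most strongly induced gene of an interferon response in blood, exceeded the limit on no array, at 124 ± 36.8 in resistant and 118 ± 40.2 in sensitive arrays. IFI6, a small protein of mitochondria and endoplasmic reticulum, had a log2 difference of 0.44 (adjusted p = 0.488) in its brighter probe set, and its other was at or below the limit throughout.

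None of the measured effectors that act on RNA was called by limma. These were 6 genes in 10 probe sets, of which 1 probe set had an unadjusted p under 0.05 and was higher. OAS1, one of the enzymes that make 2-5A to activate RNase L, had 545, 320, 63.1, 383 and 322 in resistant arrays, against 31, 52.5, 37.6, 164 and 324 in sensitive arrays, in its brighter probe set (log2 difference 0.92, SE 0.39, adjusted p = 0.231). Only 1 of these 10 values was above its array's limit. The log2 differences were 0.51 for OAS2 and 0.57 for OASL (adjusted p = 0.691 and 0.523), each with at most 3 arrays of a group above the limit. EIF2AK2, the kinase PKR that stops translation on double-stranded RNA, averaged 11211 ± 3902 in resistant and 9130 ± 3234 in sensitive arrays, and its other probe set 2841 ± 446 in resistant and 2566 ± 600 in sensitive arrays. ADAR, which edits double-stranded RNA, averaged 15782 ± 2586 in resistant and 16565 ± 1027 in sensitive arrays (log2 difference -0.08, SE 0.17). The RNase gene ISG20 was above the limit on 0 resistant arrays and 1 sensitive array.

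In the ISG15 pathway UBE2L6 rose while ISG15 itself was not called. UBE2L6 had 8870, 8646, 9524, 10835 and 9202 in resistant arrays, against 4251, 3821, 2431, 5344 and 4459 in sensitive arrays, with no overlap (log2 difference 1.23, SE 0.21, limma adjusted p = 0.00317). ISG15 had 3904, 3523, 4967, 3733 and 2799 in resistant arrays, against 2579, 3013, 3052, 3147 and 2883 in sensitive arrays, so that 1 resistant array lay inside the sensitive range. Its log2 difference was 0.33 (SE 0.18, adjusted p = 0.378), and 0.18 (adjusted p = 0.76) in its second probe set.

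Of the proteins of nuclear bodies and the TRIM family, 5 genes were measured and limma called none. Of their 10 probe sets 1 had an unadjusted p under 0.05 and was higher. SP110, a nuclear body protein, had 1378, 1214, 1285, 1879 and 2129 in resistant arrays, against 682, 708, 742, 1168 and 1028 in sensitive arrays. The groups did not overlap, but the limma adjusted p was 0.0528 (log2 difference 0.78, SE 0.22). Of 10 fits that each left out 1 array, 1 called SP110, that without sensitive replicate 4 (adjusted p = 0.0381). The highest adjusted p among these fits was 0.13. PML, the scaffold of PML bodies, averaged 1938 ± 182 in resistant and 1532 ± 143 in sensitive arrays in its brightest probe set (log2 difference 0.32, adjusted p = 0.319), and its other 3 probe sets had differences between -0.39 and 0.11. SP100, the ubiquitin ligase TRIM21 and the antiviral TRIM22 had log2 differences of 0.02, 0.05 and 0.14, each under its SE.

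Of the remaining induced genes 2 of 3 rose. IFI16 had 450, 923, 1041, 670 and 613 in resistant arrays, against 22.3, 115, 72.3, 148 and 186 in sensitive arrays. The groups did not overlap, yet only 3 resistant arrays were above the limit (log2 difference 1.94, SE 0.26, limma adjusted p = 0.000557). APOL1 had 2270, 1744, 2008, 960 and 1434 in resistant arrays, against 321, 240, 417, 113 and 208 in sensitive arrays. Every resistant array exceeded the limit and no sensitive array did (log2 difference 2.27, SE 0.28, adjusted p = 0.000229). IFI35, a partner of NMI, had separate groups in its brighter probe set, at 1758 ± 201 in resistant and 1268 ± 211 in sensitive arrays, but was not called (log2 difference 0.45, adjusted p = 0.19).

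**Figure D3:**
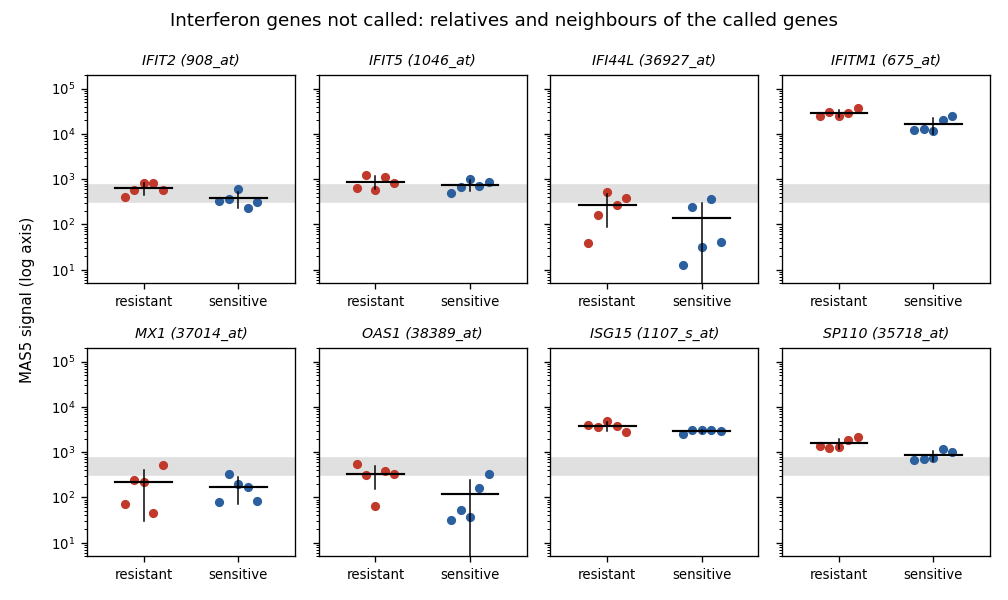
MAS5 signal (log axis) of 8 interferon genes that were not called, in their brightest probe set, 1 point per array, with resistant arrays left of sensitive arrays. Lines and bars are the mean and SD of 5 arrays (a bar that meets the lower edge runs below it), and the grey band spans the negative control limits. MX1 and IFI44L lie in or under the band in both groups, whereas IFITM1 and ISG15 lie above it in both. IFITM1 and SP110 came nearest to the threshold, with limma adjusted p-values of 0.0526 and 0.0528.

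The rest of the pathway was read from a list of 109 further genes, of which 73 were measured. By the brightest probe set 8 were called higher (11%) and 2 lower (2.74%), against 4.94% and 3.46% of all genes. The list was drawn up with earlier results of these data known, so these shares are a description and no test of the pathway. Among the kinases and STAT factors, JAK1, the kinase shared by the receptors of both interferon types, had 9049, 9802, 15070, 7597 and 9264 in resistant arrays, against 5016, 4639, 5421, 5533 and 3896 in sensitive arrays (log2 difference 1.01, limma adjusted p = 0.0103). The groups did not overlap, although JAK1 was called in 1 of its 3 probe sets, with 0.50 (adjusted p = 0.157) and 0.66 (adjusted p = 0.0833) in the others. STAT4, the factor of interleukin 12, had 1744, 1548, 1026, 1928 and 1464 in resistant arrays, against 354, 325, 581, 79 and 289 in sensitive arrays, where it never exceeded the limit, and was at least 3.11-fold higher (adjusted p = 0.00147). JAK2, TYK2 and STAT3 had log2 differences of 0.24, -0.08 and 0.59 and were not called (adjusted p = 0.602, 0.92 and 0.0679).

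Among the inhibitors of the pathway SOCS1, which binds and blocks JAK kinases, had 3843, 5339, 4382, 1586 and 3731 in resistant arrays, against 767, 535, 471, 1063 and 1085 in sensitive arrays (log2 difference 2.08, SE 0.33, limma adjusted p = 0.00171). Every resistant array was above every sensitive one. Its second probe set exceeded the limit on no array (log2 difference 0.84, adjusted p = 0.184). The probe sets of SOCS3, a related inhibitor, disagreed: the dimmer rose by 1.87 (adjusted p = 0.00121), and the brighter had a difference of 0.28 (adjusted p = 0.82). The other 7 inhibitors measured gave no call.

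Of 39 other measured genes that were listed as interferon-induced, 5 were called higher (12.8%) and 2 lower (5.13%), against 4.94% and 3.46% of all genes. WARS1, a tRNA synthetase that interferon gamma induces, averaged 27665 ± 9571 in resistant and 6716 ± 2415 in sensitive arrays (log2 difference 2.04, limma adjusted p = 0.000578). TNFSF10, the death ligand TRAIL, averaged 4704 ± 2240 in resistant and 776 ± 296 in sensitive arrays (log2 difference 2.32, adjusted p = 0.00209). The NAD-consuming surface enzyme CD38 was at least 1.54-fold higher and the cyclin gene CCND2 at least 6.2-fold higher in its brighter probe set (adjusted p = 9.3e-05 and 1.93e-05). The second probe set of CCND2 had a smaller log2 difference of 1.63, against 3.14 in the brighter (adjusted p = 0.00673), and a 3.59-fold higher mean signal. BLVRA, a biliverdin reductase, averaged 2769 ± 465 in resistant and 921 ± 548 in sensitive arrays (adjusted p = 0.0118).

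The 2 genes of this list called lower were CASP1 and LY6E. CASP1, the protease that matures interleukin 1 beta, had 246, 30.4, 29.8, 76.9 and 29.8 in resistant arrays, against 1340, 1421, 1362, 693 and 815 in sensitive arrays, and was at least 2.04-fold lower (log2 difference -2.71, limma adjusted p = 0.000107). This brighter probe set exceeded the limit in every sensitive array and in no resistant array, and the same held for MX2. The second probe set of CASP1 was also called lower (log2 difference -1.99, adjusted p = 2.8e-05), but exceeded the limit on no resistant array and only 2 sensitive arrays. LY6E, a surface protein, averaged 1800 ± 550 in resistant and 4587 ± 888 in sensitive arrays (log2 difference -1.32, adjusted p = 0.00292). LY6E lies on chromosome 8, where 69 of 298 measured genes (23.2%) were called lower and 13 higher; the part of that in its fall was not tested. MX2 lies on chromosome 21 and CASP1 on chromosome 11. None of the 8 sensor and adaptor genes measured, among them TLR3, IFIH1 and MYD88, was called by limma. By the brightest probe set the unadjusted p was under 0.05 for TLR3, which was higher, and it was also under 0.05 for the dimmer probe set of AIM2, which was lower.

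**Figure D4:**
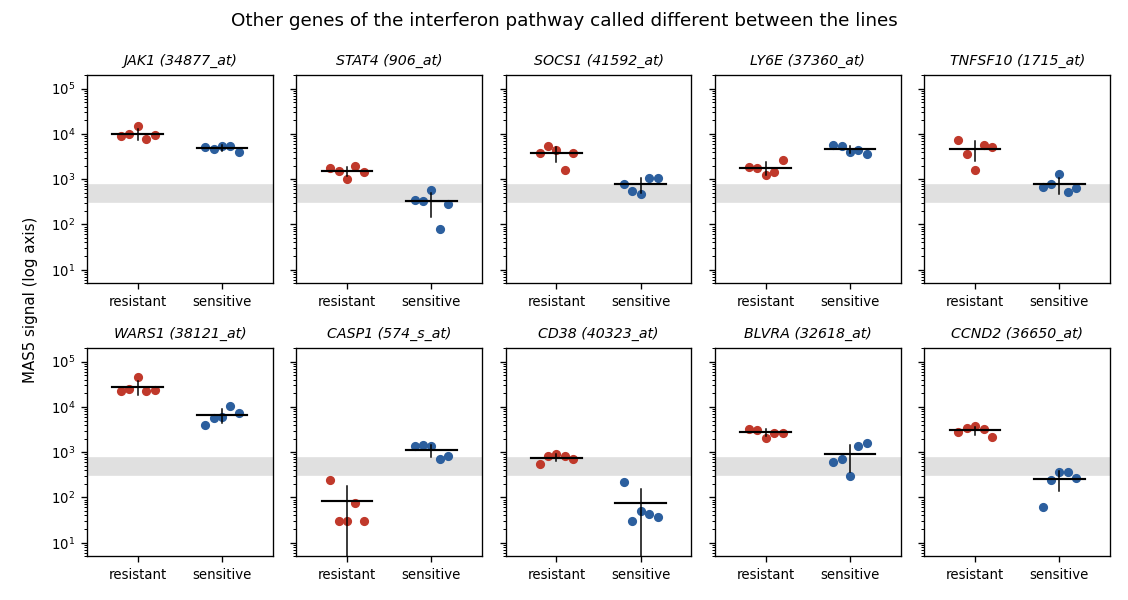
MAS5 signal (log axis) of the 10 called genes of the wider interferon pathway, in their brightest probe set, 1 point per array, with resistant arrays left of sensitive arrays. Lines and bars are the mean and SD of 5 arrays (a bar that meets the lower edge runs below it), and the grey band spans the negative control limits. CASP1 and LY6E are lower in resistant arrays and the other 8 genes are higher.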

How the data were processed

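Sample titles gave each array's group and replicate number. The deposited values are MAS5 signals, an intensity per probe set on a linear scale, per the submitters' processing notes; the sources used here do not give its version or settings. All 10 arrays had 2% trimmed means between 2501.33 and 2501.51, so the authors' values were already scaled. After 67 control probe sets were set aside, log2(signal + 114.8) was analysed, where 114.8 is the 20th percentile of all signals, so that log2 differences understate changes of dim probe sets. Resistant minus sensitive differences were tested, two-sided, with limma 3.58.1 in R 4.3.3, without covariates, with Benjamini-Hochberg adjustment over 12558 probe sets, and the fit was tested on simulated data. All adjusted p-values are from this fit. A gene's brightest probe set has the highest mean log2 signal over all arrays. "At least N-fold" compares mean log2 signals, with each array of the dim group set to its limit wherever the probe set lay under it; other folds are ratios of mean signals. Gene names came from the platform annotation (10943 with 1 symbol, 545 with several, 1070 with none), brought up to date by Entrez identifier with the RefSeq gene table of GRCh38.p14, which gave only names, chromosomes and gene order. By rule, full values are given for every listed gene with a called probe set and outside the list only for called genes. The array values of uncalled genes (IFIT2, MX1, IFITM1, OAS1, ISG15 and SP110) and the names JAK2, TYK2, STAT3, TLR3, IFIH1, MYD88 and AIM2 were added after their values were seen. The number of arrays limits the precision. Members, lists, tests and the background limit were chosen with earlier results of these data known. Alternatives were 2 other pseudocounts, 2 scalings, bright probe sets only, a replicate block, another variance model, each array left out and the mean of a gene's probe sets. The labels do not say whether replicate numbers pair the samples. Deviations of same-numbered arrays correlated at 0.009 to 0.123, and such values cannot exclude a pairing.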

Additional observations from a re-analysis of the deposited data

Results flagged for a closer look

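Among the interferon probe sets above the limit on at least 3 arrays of either group, 90 groups of 5 arrays with at least 1 array above it were examined for 1 array far from the other 4 by Dixon's test, and 10 had one. Chance gives about 1 in 20 for independent groups, but these groups share the same 10 arrays, and some genes have several probe sets. The share over all probe sets is not given here, so whether such values are particular to the interferon genes was not tested. Of these 10 values, 7 came from resistant replicate 3. In it IFITM3 was 25396, against 50374 to 59277 on the other resistant arrays, and BST2 was 9328, against 15693 to 16776. The brightest IRF5 probe set was 3555 there, against 6631 to 7693, IFI44 was 4119, against 5318 to 5880, and the dimmer EIF2AK2 probe set was 2087, against 2865 to 3253. IFIT3 and IRF1 were instead high on that array, at 4833 for IFIT3, against 2177 to 2746, and at 2627 for IRF1, against 1287 to 1552. Without resistant replicate 3 the log2 differences were 1.82 for IFIT3, 4.68 for IFI44 and 1.67 for the brightest IRF5 probe set.

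The other 3 were single genes. OAS2 was 57.3 in resistant replicate 2, against 529 to 768. IFNAR1 was 283 in sensitive replicate 5, against 833 to 1003, and 1 probe set of SP100 was 191 in sensitive replicate 3, against 1057 to 1785.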

How the results depend on the processing

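Over 17 alternative settings, the 8 called probe sets of IFI44, IFIT1, IFIT3, APOL1, IFI16, UBE2L6 and MX2 kept their direction and their call, as did the 13 called probe sets of the wider pathway in every setting that tested them. The exceptions were IRF5, whose calls were lost as given above, and IFITM1 and SP110, which passed under 6 and 5 settings. None of the probe sets recomputed under these settings, 13 of listed genes and 13 of the wider pathway, reversed; the other uncalled genes were not recomputed one by one. The listed genes called higher numbered 6 to 9 and the 1 called lower stayed at 1. With an intensity trend and robust variance the wider pathway had 5 genes called lower instead of 2, and the cause was not tested. Leaving out each array in turn gave 6 to 8 listed genes higher, 8 or 9 wider pathway genes higher, 2 or 3 lower, and 691 to 860 probe sets in the whole table. Whether the replicate numbers pair the samples is not known. Deviations of resistant replicate 3 correlated best with its own number (0.123, against at most -0.028 with another), and those of the other resistant arrays did not. With the replicate block 794 probe sets were called in the whole table, and 9 listed genes were called higher and 1 lower. With arrays scaled to a common median the median of all probe sets was -0.07 instead of 0.03 on the log2 scale, and 50.9% instead of 59.6% of calls were higher. Genes near the limit, such as MX1, IFI44L, IFI27 and OAS1, cannot be told from background on these arrays.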

Other observations

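The arrays also carry 4 control probe sets whose identifiers name ISGF3A, the alpha subunit of the factor that binds the ISRE. They were not part of the fit across probe sets and are given as values. The 3' probe set averaged 3675 ± 519 in resistant and 3242 ± 677 in sensitive arrays (SD, n = 5 each). Its exact permutation p, two-sided, was 0.262 (Benjamini-Hochberg adjusted over the 4 p = 0.524). The 5' probe set averaged 920 ± 208 in resistant and 973 ± 207 in sensitive arrays (exact permutation p = 0.667). The 2 middle probe sets averaged 2303 ± 418 and 1370 ± 208 in resistant arrays, against 2574 ± 659 and 1700 ± 374 in sensitive arrays (exact permutation p = 0.492 and 0.103). All 4 were above the limit on all 10 arrays, and in each the groups overlapped.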
